A study of Mus musculus with 5 samples.

Results

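The genes described here are Uhrf1, Hells, Dnmt1, Ezh2, Chaf1b, Chaf1a, Hmgb2, Asf1b, Pcna and Lig1, which are 10 of the 31053 genes in the deposited matrices. They were chosen by name, with their levels in hepatocytes of these libraries already known, so their differences between the libraries are given as a description and not as a test. The data are droplet-based single-cell RNA counts of perfused liver cells from C57BL/6J mice, in 5 libraries with 1 library per group. The groups were postnatal day 14 (P14), an adult control without a labelled treatment, and adults that had lost most of the liver by surgery at 8 weeks of age (partial hepatectomy, PHx) and were taken 24 h, 48 h or 96 h later. All 5 libraries passed through dead-cell removal after perfusion and were made with the same kit. One text field of the labels counts the adult control among the operated animals, whereas its title and source call it a control, and that reading was followed. Neither the number nor the sex of the animals is labelled, and the sample description carries the code L002 for the adult control and L001 for the other 4 libraries, so what that code marks and the control condition cannot be told apart.

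Each round of DNA replication copies the base sequence but not the marks on it. Behind the replication fork the sliding clamp PCNA recruits the ligase, the histone chaperones and the DNA methylation machinery, which join the new strand, load histones onto it and copy methyl groups from the old strand to the new one. Adult hepatocytes are mostly quiescent, and partial hepatectomy is the classical way to bring them back into the cell cycle in a near-synchronous wave.

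Promoter sequence is shown because all 10 genes were higher in the operated livers while they separated between 24 h and 48 h. Uhrf1, Hells and Dnmt1, which were lower at 48 h than at 24 h, each hold an E2F word. Hmgb2 and Asf1b, which were higher or within counting error, each hold a cell-cycle homology region (CHR) word. These genes and words were picked for printing. Dnmt1 also holds a CHR word in another window, and over all 10 genes the words did not sort with the pattern, as given below. The windows run from 250 bases before to 50 bases after each RefSeq start (build GRCm38.p6), and all 10 genes were found there, with 15 windows. Each printed stretch of 100 bases is written 5′ to 3′ on the gene's strand, with the matched word in capitals. In Dnmt1 the capitals are an E2F word read on the opposite strand. The stretches of Uhrf1, Dnmt1 and Asf1b lie inside the gene's GENCODE span, that of Hells crosses its first base and that of Hmgb2 lies before it.
Uhrf1 (chr17:56304082-56304181, plus strand): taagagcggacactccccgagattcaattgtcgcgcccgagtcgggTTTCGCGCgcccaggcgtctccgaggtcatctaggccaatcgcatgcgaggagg
Hells (chr19:38930882-38930981, plus strand): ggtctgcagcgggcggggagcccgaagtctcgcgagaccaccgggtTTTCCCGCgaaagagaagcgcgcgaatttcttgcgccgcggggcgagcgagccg
Dnmt1 (chr9:20952774-20952873, minus strand): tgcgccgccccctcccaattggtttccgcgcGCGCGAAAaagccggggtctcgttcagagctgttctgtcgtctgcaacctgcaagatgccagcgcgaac
Hmgb2 (chr8:57511743-57511842, plus strand): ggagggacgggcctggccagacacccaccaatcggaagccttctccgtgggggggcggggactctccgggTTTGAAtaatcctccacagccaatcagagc
Asf1b (chr8:83955594-83955693, plus strand): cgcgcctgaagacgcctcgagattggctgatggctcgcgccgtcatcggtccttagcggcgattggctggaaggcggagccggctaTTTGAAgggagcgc

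The E2F words searched on both strands were TTTCCCGC, TTTCGCGC, TTTGCCGC and TTTGGCGC. They stood in a window of 5 of the 10 genes, Uhrf1, Hells, Dnmt1, Ezh2 and Lig1, against 2.26% of the 32851 windows of 300 bases in the table and 2.61% of its 27025 genes. The printed word begins at -62 from the start in Hells. Uhrf1 and Dnmt1 have more than 1 RefSeq start, and their printed words begin at -185 and -219 from the most downstream one. The windows of their other starts hold no E2F word. The CHR words TTTGAA and TTCGAA were found in 3 of the 10, Dnmt1, Hmgb2 and Asf1b, against 19.2% of windows and 21.7% of genes, beginning at -30 in the printed Hmgb2 stretch and at -14 in that of Asf1b. The word CCAAT was found in 7 of the 10, against 37.4% of windows and 41.1% of genes. No E2F word contains a CHR word or CCAAT. The words did not sort the genes by pattern, as Ezh2 and Lig1 hold an E2F word without being lower at 48 h, Pcna, Chaf1a and Chaf1b were lower there and hold neither an E2F nor a CHR word, and a match describes letters in a window and no binding.

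Hepatocytes were taken as barcodes of at least 5000 unique molecular identifiers (UMIs, each 1 counted RNA molecule) with 10% to 30% mitochondrial UMIs and at least 1% of UMIs from Alb, Apoa1 and Ttr, the mRNAs of 3 plasma proteins made by hepatocytes. This gave 925 cells in the adult control, 1170 (24 h), 719 (48 h) and 771 (96 h) after PHx and 2106 in P14, or 5691 in all. The gate took 21.3% (96 h) to 72.4% (P14) of the barcodes of that depth, and at 96 h 1703 others were left out for over 30% mitochondrial UMIs. Levels are in CPM, the UMIs of a gene summed over the hepatocytes of a library and scaled to the sum of their non-mitochondrial UMIs, of which there were 13316829 to 64576753 per library. Intervals are 95% exact Poisson intervals for a level, exact conditional intervals for a ratio and exact Clopper-Pearson intervals for a share. They cover counting error only, and with 1 library per group there is no replicate against which a difference could be tested. Free RNA, read from 40000 droplets on the plateau of the barcode ranking in each library, could account for 3.34% to 16.5% of a gene's UMIs in control hepatocytes and for at most 7.07% in the other libraries. Between hepatocytes of different libraries, 2 barcodes were shared by the adult control and P14 and 1 by 48 h and P14.

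**Figure D1:**
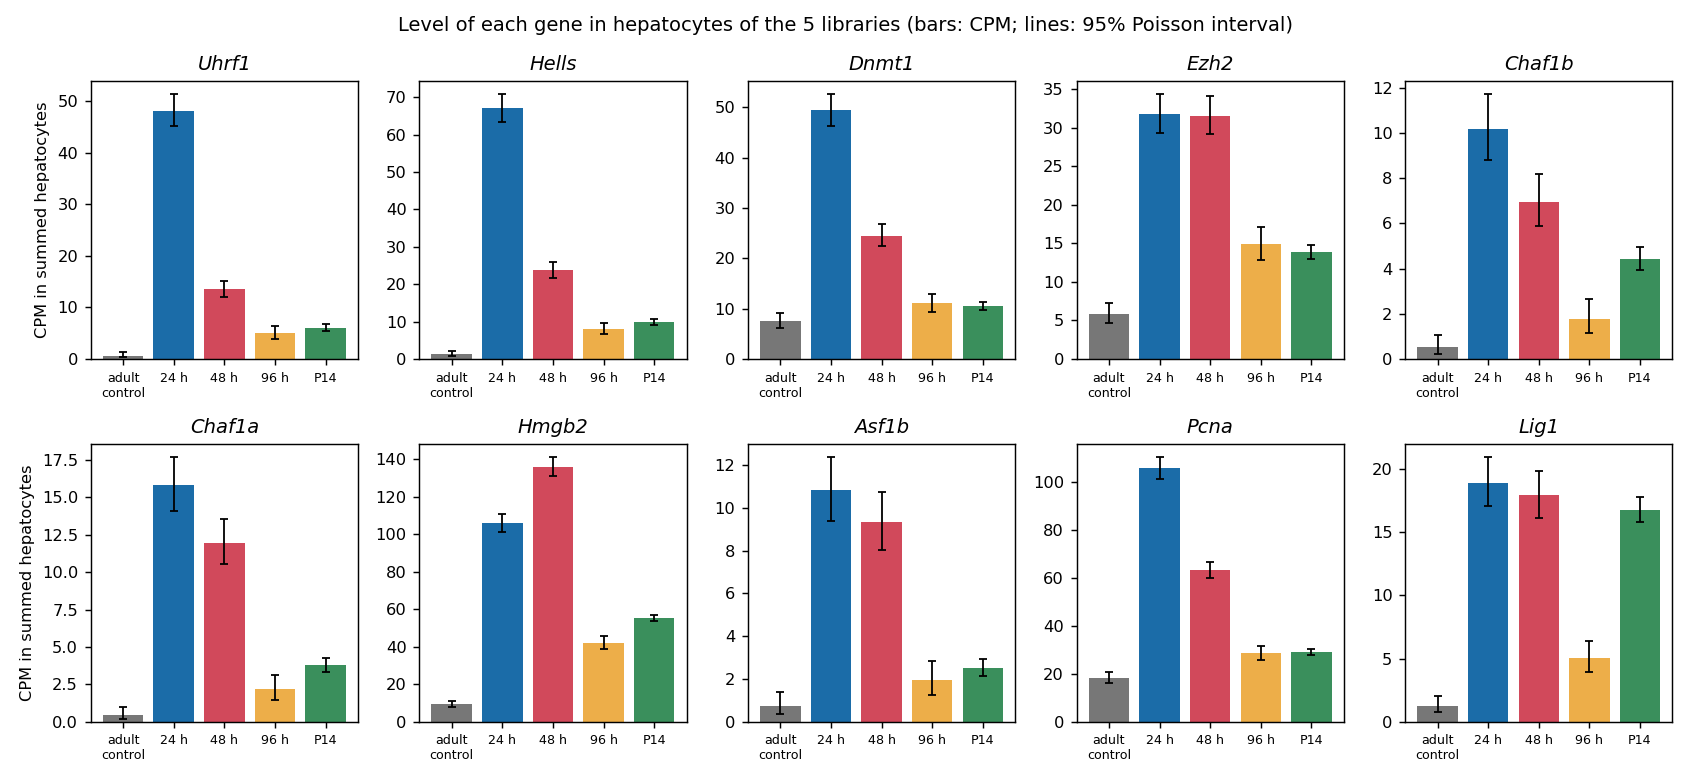
Level of each of the 10 genes in summed hepatocytes, in CPM on an axis of its own, in the 5 libraries, with lines for the 95% Poisson interval. For Uhrf1 the bar of 24 h stands at 48.1 CPM against 13.5 CPM at 48 h, for Ezh2 both stand near 32 CPM, and for Hmgb2 the bar of 48 h is the higher at 136 CPM.

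All 10 genes were at least 2-fold higher at 24 h and at 48 h than in the adult control. A 2-fold call was a log2 ratio of at least 1 after adding 1 CPM to both levels. In the same comparisons 6.13% of 15558 genes at 24 h and 6.2% of 15801 genes at 48 h were at least 2-fold higher. The members were chosen for this pattern, so the counts carry no weight of their own. Their median log2 ratio was 3.00 at 24 h and 2.81 at 48 h, against -0.00 and -0.08 over all genes of at least 5 CPM. At 96 h 6 of the 10 remained at least 2-fold higher (median 1.17), where 3.53% of 15363 genes did, and in P14 8 of the 10 did (median 1.78), where 6.13% of 17048 genes did. The median over all genes in the P14 comparison was -0.26, and scaling by TMM factors moved it by 0.32 to 0.06 and the members' median to 2.01, with 8 genes still called. The counts at these low levels depended on the pseudocount, and with 5 CPM in place of 1 they were 2 of 10 at 96 h and 3 of 10 in P14. The share of all genes called with 5 CPM was not computed.

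Uhrf1 encodes the protein that reads half-methylated DNA and brings the maintenance methyltransferase to it (ENSMUSG00000001228, mm10 chr17:56303321-56323486, plus strand). Its level was 0.676 CPM in control hepatocytes, then 48.1 (24 h), 13.5 (48 h) and 5.06 (96 h), and 6.09 in P14. The 24 h library stood 71.2-fold above the control (37.3 to 156), a ratio that rests on 9 control UMIs against 939. At 48 h the level was 0.281 of that at 24 h (0.245 to 0.322), the lowest such ratio of the 10 genes. The levels of 96 h and P14 lay close together, with a ratio of 0.831 (0.633 to 1.08).

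Hells encodes a chromatin remodeler that opens compacted DNA for methylation (ENSMUSG00000025001, mm10 chr19:38930915-38971051, plus strand). It followed the same course, with 1.35 CPM in control hepatocytes, then 67.1 (24 h), 23.7 (48 h) and 8.04 (96 h), and 9.86 in P14. At 24 h it was 49.6-fold above the control (31.3 to 84.0), and at 48 h it was at 0.354 of its 24 h level (0.318 to 0.392). Uhrf1 and Hells were the only 2 of the 10 genes at least 2-fold lower at 48 h than at 24 h, where 1.1% of all genes were, and none was 2-fold higher, where 1.31% were. Over the 4 log2 ratios to the control, Hells lay at a root mean square distance of 0.16 from Uhrf1, closer than any other member.

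Dnmt1, the maintenance DNA methyltransferase itself (ENSMUSG00000004099, mm10 chr9:20907209-20959888, minus strand), differed less from the control. It stood at 7.51 CPM in control hepatocytes, then 49.4 (24 h), 24.5 (48 h) and 11.1 (96 h), and 10.5 in P14. The ratio of 24 h to control was 6.58 (5.35 to 8.17) and that of 48 h to 24 h was 0.497 (0.445 to 0.553), just short of a 2-fold call at a log2 ratio of -0.98. At 96 h and in P14 it was not called 2-fold, with ratios to the control of 1.48 (1.14 to 1.92) and 1.40 (1.14 to 1.75). Its control level was therefore a larger part of its peak than for its partners Uhrf1 and Hells.

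Ezh2 encodes the enzyme of Polycomb repressive complex 2 that methylates histone H3 at lysine 27 (ENSMUSG00000029687, mm10 chr6:47530139-47595341, minus strand). It was at 5.86 CPM in control hepatocytes, then 31.7 (24 h), 31.5 (48 h) and 14.9 (96 h), and 13.8 in P14. The levels at 24 h and 48 h could not be told apart by counting error (ratio 0.994, 0.890 to 1.11). The log2 ratio of 48 h to 24 h was -0.01 for Ezh2 and -1.76 for Uhrf1.

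Chaf1a and Chaf1b encode the large and middle subunits of chromatin assembly factor 1, which loads new histones H3 and H4 at the fork. Chaf1a (ENSMUSG00000002835, mm10 chr17:56040439-56072289, plus strand) was at 0.451 CPM in control hepatocytes, then 15.8 (24 h), 12.0 (48 h) and 2.16 (96 h), and 3.78 in P14. Chaf1b (ENSMUSG00000022945, mm10 chr16:93883901-93906115, plus strand) was at 0.526, 10.2, 6.96, 1.79 and 4.43 CPM in the same order. Both subunits were lower at 48 h than at 24 h, at 0.755 (0.636 to 0.895) and 0.683 (0.547 to 0.850) of the earlier level, less far than Uhrf1. Asf1b, a chaperone that hands histones to that complex (ENSMUSG00000005470, mm10 chr8:83955507-83970197, plus strand), was at 0.751 CPM in control hepatocytes, then 10.8 (24 h), 9.31 (48 h) and 1.93 (96 h), and 2.51 in P14. Its ratio of 48 h to 24 h was 0.861, with an interval (0.705 to 1.05) that includes 1. At 96 h the ratios to the control of Chaf1b (3.40, 1.42 to 9.34) and Asf1b (2.58, 1.20 to 5.99) rested on 24 and 26 UMIs, and adding 1 CPM to such low levels kept both short of the 2-fold call.

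Hmgb2, a DNA-bending protein of the high mobility group (ENSMUSG00000054717, mm10 chr8:57511907-57515999, plus strand), had its highest level at 48 h. It was at 9.39 CPM in control hepatocytes, then 106 (24 h), 136 (48 h) and 42.0 (96 h), and 55.3 in P14. It was the only one of the 10 genes whose ratio of 48 h to 24 h lay above 1 with its whole interval (1.28, 1.21 to 1.36). The 10 neutrophil markers moved with it inside the hepatocyte gate, at a summed 11.8 CPM in control hepatocytes, then 106 (24 h), 195 (48 h) and 22.4 (96 h), and 28.2 in P14, with 2 of the 10 at 0 in the control and at 96 h. Neutrophil-gated barcodes held 834 to 1620 CPM of Hmgb2. Without hepatocytes that held at least 4 markers of another cell class, the log2 ratio of 48 h to 24 h was 0.33 against 0.36 with them.

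Pcna, the sliding clamp (ENSMUSG00000027342, mm10 chr2:132249162-132253314, minus strand), was at 18.3 CPM in control hepatocytes, then 106 (24 h), 63.1 (48 h) and 28.6 (96 h), and 29.1 in P14. Its level at 48 h was 0.597 of that at 24 h (0.557 to 0.640), and the ratios to the control at 96 h (1.56, 1.33 to 1.84) and in P14 (1.59, 1.39 to 1.82) were under 2. A near-identical Pcna copy, Pcna-ps2, had 0, 20, 8, 5 and 25 UMIs in the control, the 3 PHx libraries by time and P14. Reads that match both copies may be counted for neither, so what Pcna lost to the copy was not tested. Lig1, the ligase that seals lagging-strand fragments (ENSMUSG00000056394, mm10 chr7:13277283-13311433, plus strand), was at 1.28 CPM in control hepatocytes, then 18.9 (24 h), 17.9 (48 h) and 5.06 (96 h), and 16.8 in P14. Lig1 did not differ between 24 h and 48 h beyond counting error (0.947, 0.818 to 1.10), and it alone stood almost as high in P14 as at 24 h.

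The 48 h to 24 h ratios thus ran from 0.281 for Uhrf1 through Hells, Dnmt1, Pcna, Chaf1b, Chaf1a, Asf1b, Lig1 and Ezh2 to 1.28 for Hmgb2. Neighbours in this order from Pcna to Ezh2 had overlapping intervals, whereas Uhrf1 and Hells lay below Dnmt1 with intervals that overlapped each other only narrowly. From 48 h to 96 h all 10 were at least 2-fold lower, where 3.17% of 15792 genes were, with ratios from 0.181 (0.118 to 0.266) for Chaf1a to 0.472 (0.401 to 0.554) for Ezh2. Ezh2, Dnmt1 and Pcna, whose control levels were the highest relative to their own peaks, showed the 3 ratios nearest to 1.

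**Figure D2:**
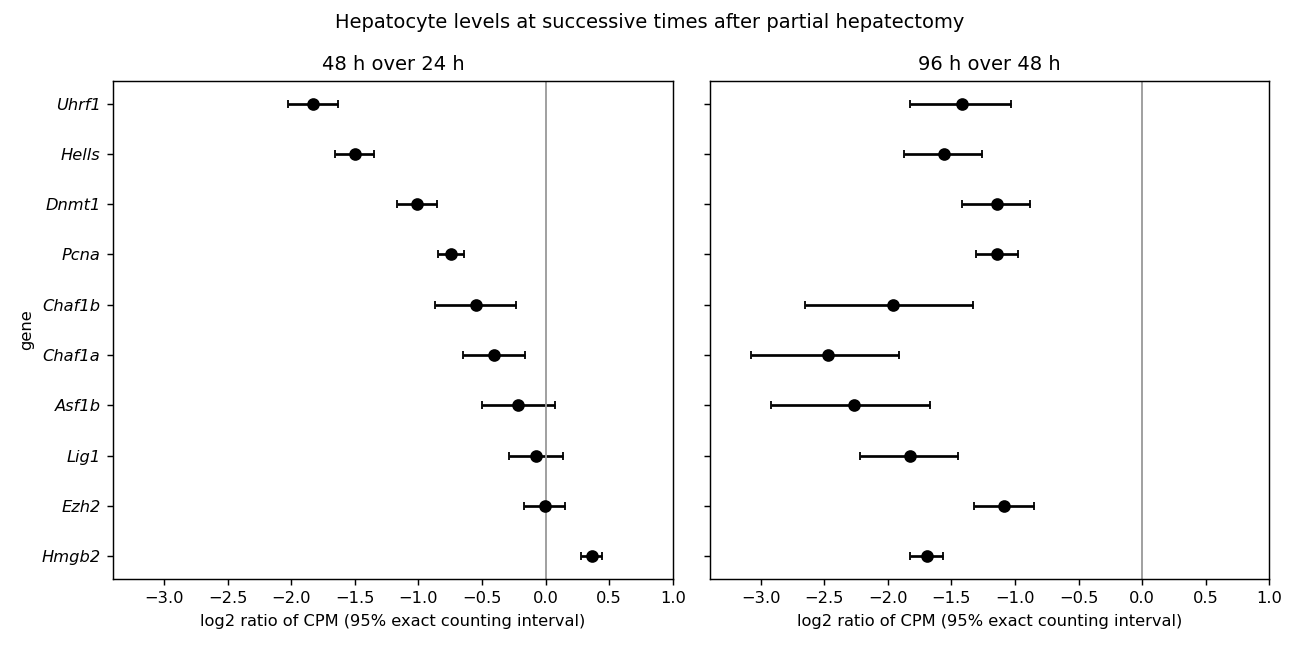
Log2 ratio of CPM at 48 h over 24 h (left) and at 96 h over 48 h (right) in hepatocytes for each gene, with 95% exact counting intervals and a vertical line at no difference. On the left the genes spread from -1.83 for Uhrf1 to 0.36 for Hmgb2, and on the right all 10 lie below -1.

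Regenerating and P14 livers were also set side by side, both of them holding hepatocytes that divide. Of the 10 genes, Lig1 alone was at least 2-fold lower at 96 h than in P14, where 3.26% of all genes were. Its ratio was 0.302 (0.233 to 0.386), and Chaf1b came next at 0.403 (0.254 to 0.612), or a log2 ratio with the pseudocount of -0.96 that passed 2-fold, at -1.24, with TMM factors. For Ezh2 and Dnmt1 the log2 ratios of 0.10 and 0.07 turned to -0.24 and -0.26 with TMM factors, which shifted the median of all genes in this comparison by -0.34. At 24 h 8 of the 10 were at least 2-fold above P14, where 9.94% of all genes were, with Uhrf1 at 7.91-fold (7.02 to 8.92) and Hells at 6.80-fold (6.18 to 7.49). Hmgb2 at 1.92-fold (1.82 to 2.02) and Lig1 at 1.13-fold (1.00 to 1.27) were not. TMM factors shifted the median of all genes here by -0.27, took Ezh2 and Chaf1b from log2 ratios of 1.14 and 1.04 to 0.87 and 0.81, below 2-fold, and turned that of Lig1 from 0.17 to -0.11.

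The number of the 10 genes found per cell was counted as well. It was not set against the number that the share of each gene alone would give. Because median depth ranged from 18527 UMIs per hepatocyte in the control to 38922.5 in P14, each cell was thinned at random to 3500 non-mitochondrial UMIs, which left out no hepatocyte. At that depth 17.9% of hepatocytes at 24 h carried at least 3 of the 10 genes (210 of 1170, 15.8% to 20.3%). The share was 8.48% at 48 h (61 of 719, 6.55% to 10.8%), 2.59% at 96 h (20 of 771, 1.59% to 3.98%) and 3.70% in P14 (78 of 2106, 2.94% to 4.60%). In the adult control 2 of 925 cells did (0.216%, 0.0262% to 0.779%). Without thinning the order of 24 h and 48 h turned, with 50.4% and 54.7%, at median depths of 19562 and 35432 UMIs.

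**Figure D3:**
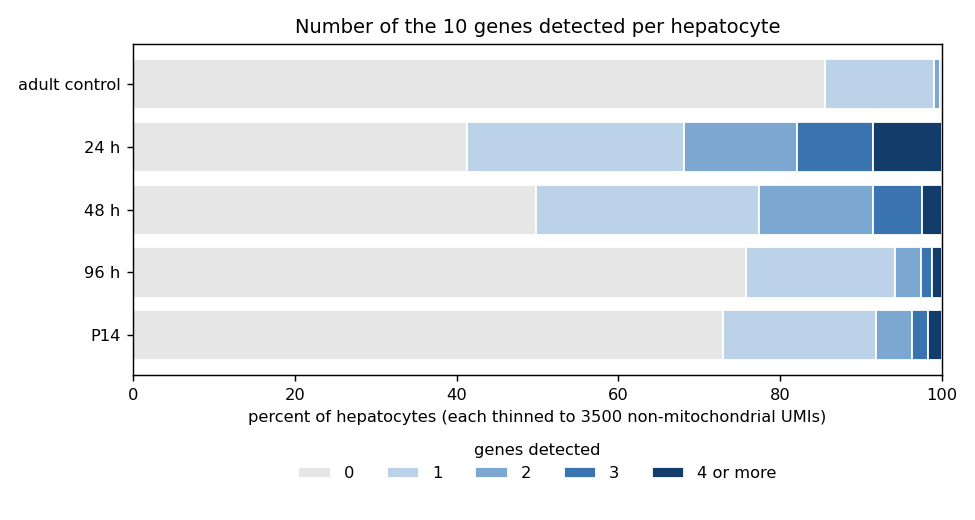
Percent of hepatocytes with 0, 1, 2, 3 or at least 4 of the 10 genes detected, per library, after each cell was thinned to 3500 non-mitochondrial UMIs. Cells with none make up 85.5% of the adult control and 41.3% at 24 h, and the darkest segments, 3 or more genes, are widest at 24 h.

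For Uhrf1 and Hmgb2 the shares of positive cells had the order of the summed levels. At equal depth Uhrf1 was found in 0.216% of control hepatocytes, 12.9% at 24 h (11.0% to 15.0%), 3.48% at 48 h (2.26% to 5.09%), 0.908% at 96 h, with 2.04% in P14. Hmgb2 was found in 3.14%, 20.3% (18.0% to 22.7%), 28.7% (25.4% to 32.1%), 8.69% and 12.5% in the same order. Uhrf1 was thus most frequent at 24 h and Hmgb2 at 48 h, in shares as in levels. For some other genes neighbours in that order changed places. Lig1 was found in 5.64% at 24 h (4.39% to 7.12%), overlapping 5.98% at 48 h (4.36% to 7.97%). At full depth Hells was found in 1.73% of control hepatocytes, 41.7% at 24 h, 29.5% at 48 h, 6.36% at 96 h, with 13.5% in P14. In neutrophil-gated barcodes it was found in 1.92%, 6.17%, 1.17%, 1.27% and 5.56%, at median depths of 3245.5, 5354, 9047, 3765 and 6993.5 UMIs. The control value of that gate is 1 barcode of 52 and the shallowest of the 5, so it sets no background for Hells, while free RNA was expected to give 5.78% of the 18 Hells UMIs of control hepatocytes.

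For some pairs, cells with one gene held the other more often than the remaining cells did. Among the 151 hepatocytes with Uhrf1 at 24 h and equal depth, 39.7% (31.9% to 48.0%) also held Hells, against 13.6% of the other 1019, and 47.7% (39.5% to 56.0%) held Pcna against 25.5%. In P14, Hells was in 32.6% (19.1% to 48.5%) of the 43 cells with Uhrf1 and in 2.81% of the rest. At 48 h only 25 cells held Uhrf1, and 16.0% of them (4.54% to 36.1%) held Hells against 5.48%, an interval that includes the latter. Asf1b was in 3.60% (0.990% to 8.97%) of the 111 cells with Ezh2 at 24 h and in 3.87% of the rest, which that interval includes. In P14 it was in 3.16% (0.656% to 8.95%) of 95 cells with Ezh2 against 0.348%, a share that rests on 3 cells.

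Cells were then set apart by genes other than the 10. At equal depth a hepatocyte was called mitosis-positive with at least 2 genes of a mitosis list (Mki67, Top2a, Cdk1 and others), replication-only with at least 2 genes of a replication list (Mcm2, Cdc6, Rrm2 and others) and fewer than 2 of the former, and neither otherwise. These are ranges of a score and not cell types, as 209 cells at 24 h and 94 at 48 h held exactly 1 mitosis gene and 58 and 49 held exactly 2. Mitosis-positive cells made up 18.9% of hepatocytes at 24 h (16.7% to 21.3%), 47.8% at 48 h (44.1% to 51.6%), 14.4% at 96 h (12.0% to 17.1%) and 15.0% in P14 (13.5% to 16.6%). The control held 8 such cells and is not described by state. The mitosis-positive class was made up differently in each library, as 210 of its 221 cells at 24 h also held at least 2 replication genes, against 225 of 344 at 48 h, 65 of 111 at 96 h and 212 of 316 in P14. Levels compared within it are thus not levels in like cells.

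In mitosis-positive cells Hmgb2 stood at 374 CPM at 24 h (355 to 393), 236 at 48 h (227 to 245), 159 at 96 h (144 to 176) and 308 in P14 (297 to 319). Cells with neither list held 16.4, 12.5, 12.9 and 12.0 CPM in the same order. In mitosis-positive cells the level of Hmgb2 was thus lower at 48 h than at 24 h, although over all hepatocytes it was higher. The levels of the other states were also lower at 48 h, at 39.6 CPM (33.1 to 47.2) against 50.1 (45.2 to 55.4) in replication-only cells. In cells with neither list they were 12.5 (9.92 to 15.5) against 16.4 (13.6 to 19.5). These intervals of 24 h and 48 h overlapped, which does not show that the levels were alike. No interval of the ratio was computed by state. With states cut at 3 genes, mitosis-positive cells still held 418 CPM at 24 h and 257 at 48 h, and the other hepatocytes 43.2 and 30.7.

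Uhrf1 had another distribution. At 24 h it stood at 107 CPM in mitosis-positive cells (96.8 to 117), 56.3 in replication-only cells (51.2 to 61.9) and 7.87 in cells with neither (6.01 to 10.1). At 48 h these were 17.5 (15.1 to 20.1), 21.9 (17.0 to 27.6) and 2.62 (1.53 to 4.20). Uhrf1 was thus lower at 48 h in each of the 3 states as defined, and the intervals of mitosis-positive and replication-only cells overlapped there. The part of the smaller replication-list share of mitosis-positive cells at 48 h in this was not tested. The log2 ratio of mitosis-positive to all other hepatocytes was 1.69 for Uhrf1 at 24 h and 0.89 at 48 h, and cutting at 3 genes lowered them to 1.14 and 0.27. For Ezh2 it was 2.15 and 1.98, and for Hmgb2 3.45 and 3.40.

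**Figure D4:**
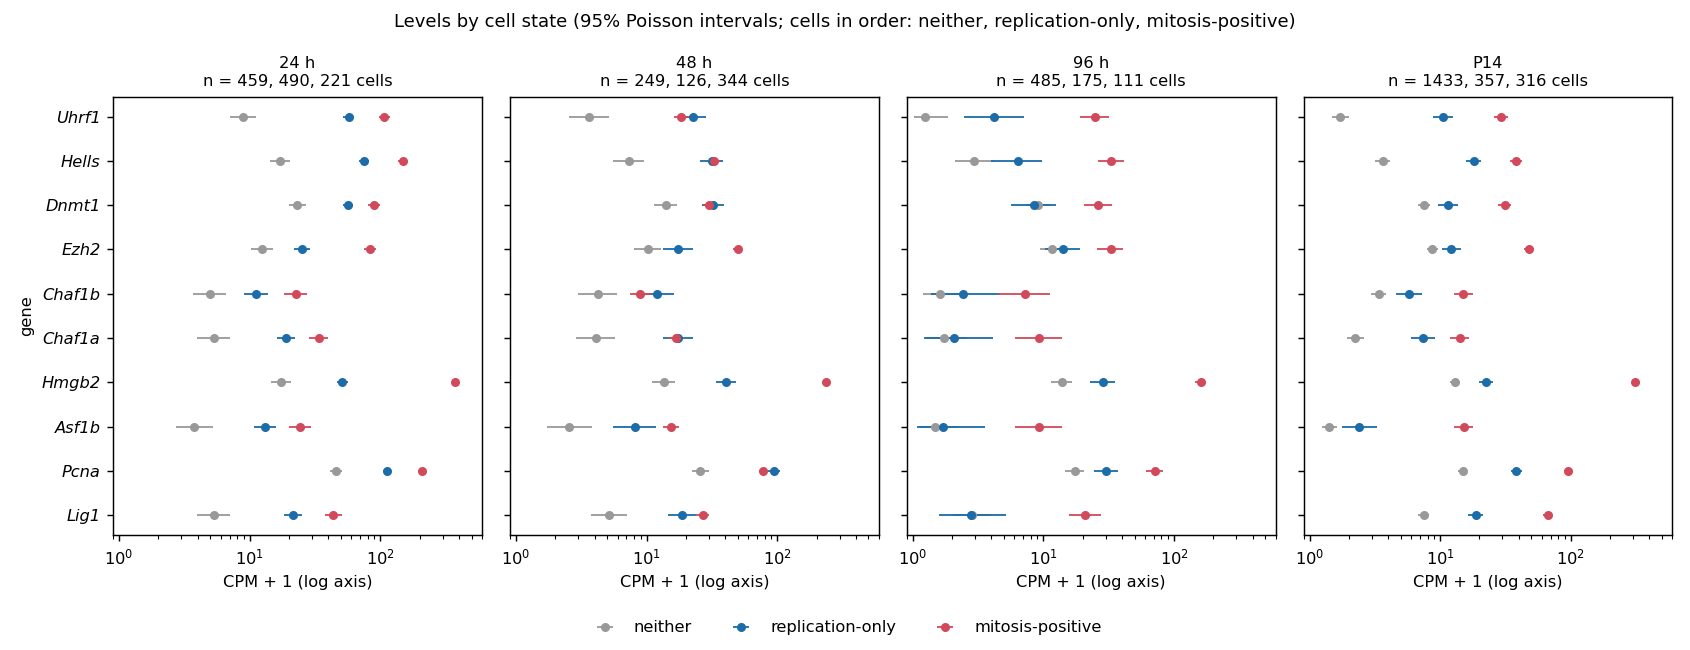
Level of each gene by cell state at 24 h, 48 h, 96 h and in P14, as CPM plus 1 on a log axis, with 95% Poisson intervals and the number of cells per state above each panel. Hmgb2 stands farthest to the right in mitosis-positive cells of all 4 panels, and at 48 h the mitosis-positive and replication-only points of Uhrf1, Hells, Dnmt1, Chaf1a, Chaf1b and Pcna lie close together.

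The share of cells with at least 3 of the 10 genes followed the states. In mitosis-positive cells it was 55.7% at 24 h (48.8% to 62.3%), 14.8% at 48 h (11.2% to 19.0%), 17.1% at 96 h (10.6% to 25.4%), with 20.3% in P14 (16.0% to 25.1%). In replication-only cells it was 15.7%, 7.14%, 0.571% and 3.36%. The highest share in mitosis-positive cells was in the 24 h library, where the largest share of that class also held the replication list. Between 48 h and 96 h the orders did not match. A larger part held the list at 48 h (225 of 344 against 65 of 111), while 14.8% and 17.1% held at least 3 of the 10 genes, with overlapping intervals. A link between them was not tested. The replication-only class is the less certain of the states, since Mcm10, a gene of the replication list, was found at equal depth in 39.6% of control hepatocytes against 6.15% at 24 h.

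Outside the hepatocyte gate, barcodes of at least 1000 UMIs and under 10% mitochondrial UMIs were placed in a class with at least 4 of its markers. B-gated barcodes of P14 (98 barcodes, median 7310 UMIs) carried 171 CPM of Uhrf1 (151 to 193), 142 of Hells, 179 of Dnmt1, 495 of Ezh2 and 4231 of Hmgb2 (4130 to 4334). B-gated barcodes of the 4 adult libraries carried 0.781 to 13.7 CPM of Uhrf1 and 169 to 776 of Hmgb2. Neutrophil-gated barcodes carried 834 to 1620 CPM of Hmgb2 in the 5 libraries, above its level in hepatocytes of every library, but 1.57 to 18.3 CPM of Hells. T or NK-gated barcodes carried 593 CPM of Hmgb2 and 43.6 of Dnmt1 in the control, above the 9.39 and 7.51 of control hepatocytes. Monocyte, macrophage or dendritic-gated barcodes at 24 h (33 barcodes) carried 91.2 CPM of Hells and 46.4 of Uhrf1. At 96 h that class (31 barcodes) carried 70.7 CPM of Hells and 54.6 of Uhrf1, and erythroid-gated barcodes (20) carried 86.9 of Uhrf1, all of it in 3 barcodes. Free RNA amounted to 1323 non-mitochondrial UMIs per droplet in the control and 663 at 24 h, and its share in these barcodes was not computed. Its own level was 3.86 CPM of Uhrf1 in P14 and 9.15 of Hmgb2 in the control, below the B-gated and T or NK-gated values above, but 27.5 of Uhrf1 at 24 h. The 24 h hepatocytes, at 67.1 CPM of Hells and 48.1 of Uhrf1, stood above the B-gated, T or NK-gated and neutrophil-gated barcodes of the adult libraries, but not above all of the other classes.

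**Figure D5:**
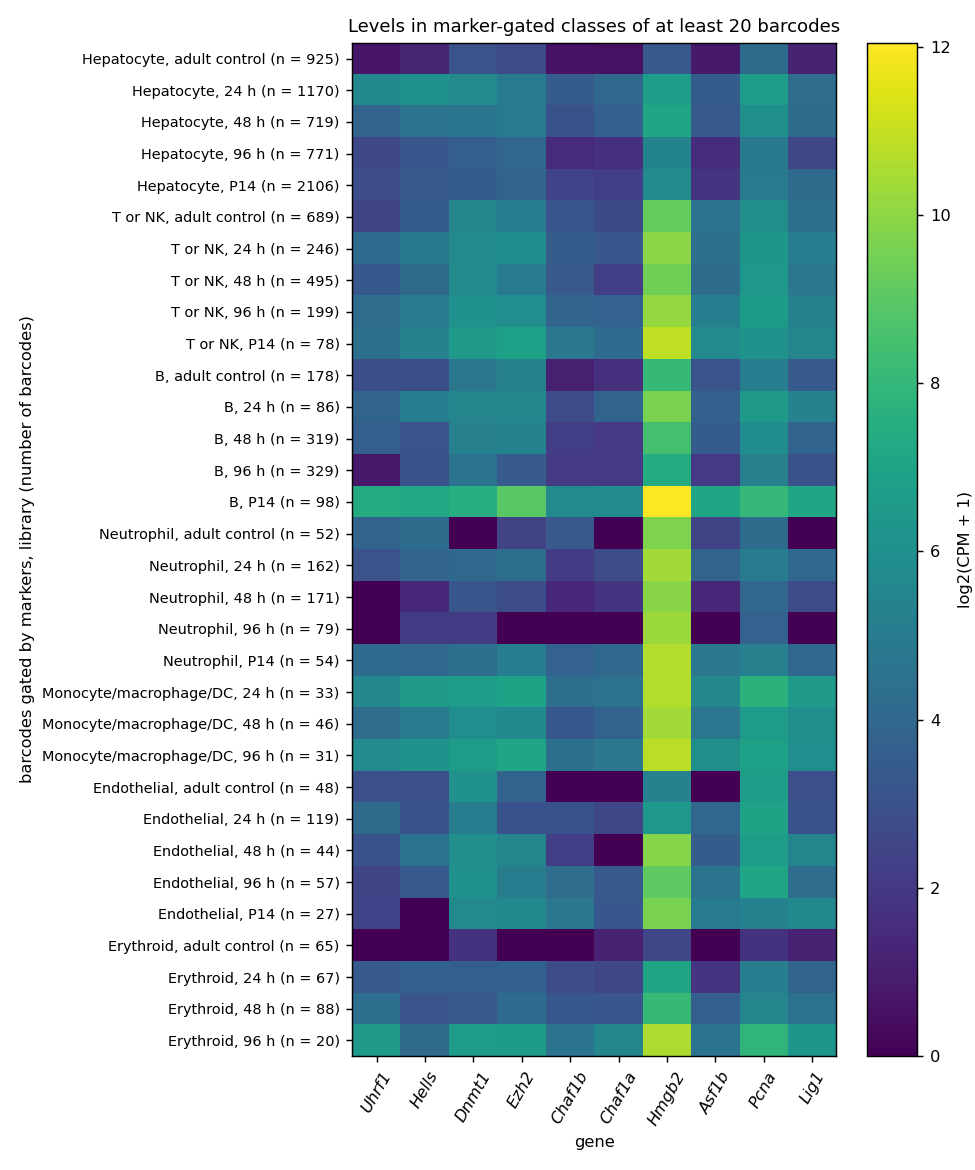
Level of each gene as log2 of CPM plus 1, in colour, in the hepatocytes of each library and in marker-gated classes of at least 20 barcodes (number in parentheses). The Hmgb2 column is bright in most blood-cell rows, and the P14 B-gated row is the brightest for Uhrf1, at 171 CPM.

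Other genes of the same machinery moved less uniformly. The list held 93 genes in 6 groups, of which 78 had at least 5 CPM in either library of the 24 h comparison. Of these 24 were at least 2-fold higher and 3 lower than in the control, where 8.51% and 7.13% of all genes of that level were. At 48 h it was 19 and 3 of 75 (8.3% and 7.63% of all), at 96 h 7 and 1 of 71 (4.07% and 1.88%), and in P14 11 and 3 of 72 (7.89% and 13.8%). Most of the higher genes came from the group of the sliding clamp, lagging strand and ligation, with 14 of 20 at 24 h, 12 of 18 at 48 h, 6 of 15 at 96 h and 6 of 16 in P14. Pclaf, a PCNA-binding factor, led that group in all 4 comparisons, from 0.976 CPM in the control to 38.5 at 24 h, 33.6 at 48 h, 10.9 at 96 h, with 20.2 in P14.

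Among the DNA methylation genes beside Uhrf1, Hells and Dnmt1, 1 of 13 was higher at 24 h, Cdca7, a partner of Hells (log2 ratio 1.32). Cdca7 stood at 2.40 CPM in the control, 7.48 at 24 h and 2.78 at 48 h, a log2 ratio of -1.16 from 24 h to 48 h, so that it was high at 24 h and over 2-fold lower at 48 h, as were Uhrf1 and Hells. At 24 h 2 genes of the group were lower, Tet3, a methylcytosine oxidase (-1.08), and Gadd45a, a damage-response gene linked to demethylation (-1.51). Gadd45a was at 34.2 CPM in control hepatocytes, then 11.4 (24 h), 11.9 (48 h) and 15.8 (96 h), and 7.17 in P14. Dnmt3b, a de novo methyltransferase, was higher in P14 (2.16), where Mbd1, a methyl-DNA reader, was lower (-2.23). The median of the group was -0.02 at 24 h, near that of all genes.

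The other listed genes of Polycomb repressive complex 2, Ezh1 among them, had a median log2 ratio of 0.76 at 24 h and 0.01 at 48 h. Past a fold of 2, of the 9 genes, Suz12, a core subunit, was higher at 24 h (1.16) and Phf1, an accessory subunit, was lower at 24 h (-1.73) and at 48 h (-1.30). At 96 h none was called, and in P14 the histone-binding subunits Rbbp7 (1.45) and Rbbp4 (-1.48) went in opposite directions. Among histone chaperones 4 of 18 were higher at 24 h and 3 of 18 at 48 h. They were led by Mms22l, a fork-associated factor (3.08 and 2.35), and Hat1, a histone acetyltransferase, led in P14 (1.27). Of 14 heterochromatin genes 2 were higher at 24 h, led by Cbx5, a reader of methylated histone H3 (1.13), and 1 at 48 h, the methyltransferase gene Suv39h1 (1.36). Hmgn2, a nucleosome-binding high mobility group gene, led its group of 4 in all comparisons, at 1.95, 2.40, 1.71 and 1.96.

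Among 5952 genes outside these lists with at least 20 CPM in a library, the patterns nearest to that of Uhrf1 over the 4 log2 ratios to the control included those of Ncapg2, Ccnd1, Fignl1 and Slfn9, at root mean square distances of 0.57, 0.64, 0.65 and 0.68. Those most like Hmgb2 were Smc2, Ttk, Anln, Kif4 and Diaph3, at 0.23, 0.30, 0.33, 0.39 and 0.43. The 5 nearest to Hmgb2 were all higher at 48 h than at 24 h (Smc2 67.9 and 49.4 CPM), and the 4 named beside Uhrf1 were all lower (Ccnd1 141 and 369 CPM). Both times entered the distances, so these directions follow in part from how the genes were picked. The distances rest on 5 libraries that share the control and are a description.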

How the data were processed

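The deposited file of each of the 5 libraries is a sparse table of unnormalized UMI counts (whole numbers), over barcodes that include empty droplets as well as cells. The software version named in the header is 3.0.2, per the file headers. Per the submitters' processing notes the tools were bcl2fastq 2.17.1.14, Cell Ranger and Seurat 3.1, with build mm10; which of these shaped the matrices is not given in the sources used here. The 10 genes, the lists and the rules were chosen with earlier results of these data known. Named genes were all members, the largest and smallest ratios of each list group, and the nearest patterns to Uhrf1 and to Hmgb2, some of which are not reported here; other names (Tet3, and Hmgb2 and Uhrf1 by state) were chosen after their values were seen. Counts were summed per library and divided by non-mitochondrial totals, with a pseudocount of 1 CPM in calls. With 1 library per group no test was run. Python 3.11.15, scipy 1.17.1, and TMM factors of edgeR 4.0.16 in R 4.3.3 were used. Doublets were left in; removing the highest scores of Scrublet (scanpy 1.11.5) was an alternative. The ratio step was tested on simulated data, where 200 of 200 changed genes were recovered at 24 h. Those genes were drawn from genes of at least 20 CPM in the control, a level that none of the 10 genes reached there. The simulation thus does not cover calls at the levels of the 10 genes. Its planted changes lay well beyond the 2-fold cut and its noise was Poisson only. Full recovery therefore says little about smaller changes, and nothing about variation between libraries of a group. Gene positions are from GENCODE M21.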

Additional observations from a re-analysis of the deposited data

How the results depend on the processing

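The alternatives were run for the ratios to the control and between successive times after PHx, and not for those of 96 h and 24 h to P14. Among the ratios covered, none that had been called changed sign. Of 654 alternative values, 599 moved by less than their counting interval and 55 by more. The 599 include the values under a minimum of 5 CPM, a setting that drops genes and cannot change a ratio. For genes with few control UMIs the interval was wide, so a move smaller than it says little. Ratios of mitosis-positive to other hepatocytes were less steady, with 11 of 40 moved by more when states were cut at 3 genes, the only alternative run for them. A pseudocount of 5 CPM lowered the count of members at least 2-fold higher to 2 at 96 h and to 3 in P14. A minimum of 5 CPM left 7 genes in P14, of which 5 were called, where 7.89% of all genes of that level were. Leaving out mixed barcodes gave 7 of 10 in P14, with Asf1b at the threshold. Shares over all genes were not computed for the pseudocount of 5 CPM, for mixed barcodes left out or for the alternative gates. The share of hepatocytes with at least 3 members moved with depth. Thinned to 10000 UMIs it was 0.920% in control hepatocytes, then 41.1% (24 h), 30.3% (48 h) and 6.02% (96 h), and 9.58% in P14, and without thinning 1.30%, 50.4%, 54.7%, 10.1% and 26.4%. For at least 2 members it was 0.973%, 31.9%, 22.7%, 5.84% and 8.17%. In the control it was 0% of the 87 cells with 10% to 20% mitochondrial UMIs (upper limit 4.15%), a gate that also left 53 cells and 4 called members at 96 h, and 0% in another thinning draw (upper limit 0.398%), which gave 10.3% at 48 h. With 0% to 30% mitochondrial UMIs it was 15.4% at 24 h. Removal of mixed barcodes, another thinning draw and the cut at 3 state genes were chosen after seeing the data. No paired analysis was possible because each group is 1 library. Ratios to the control rest on few UMIs for Uhrf1, Chaf1a and Chaf1b, which had 9, 6 and 7 there.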

Other observations

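The counts assigned to Mcm10, a replication initiation factor, were lower in hepatocytes of the operated and P14 libraries than in the adult control. They came to 133 CPM in control hepatocytes, then 19.8 (24 h), 24.0 (48 h) and 95.8 (96 h), and 7.36 in P14, and at equal depth the gene was found in 39.6% of control hepatocytes and 6.15% of those at 24 h. The counts themselves are in doubt, since the reads behind them were not analysed here and most other genes of the replication list were lower in the control than at 24 h. This gene was singled out after its values were seen, and no cause was tested.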
